A study of Mus musculus with 2 samples.

Results

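The cells described here are labelled lateral wall fibrocytes of the mouse cochlea and were chosen by the transcripts Kcnk2, Car3 and Gjb2. A cell barcode was a member when it held at least 5 Kcnk2, 3 Car3 and 3 Gjb2 unique molecular identifiers (UMIs, each 1 captured transcript), 300 or more detected genes and a mitochondrial share of no more than 20%. By this rule 53 of 1975 passing barcodes were members. Library 1 held 39 of 1331 passing barcodes (2.93%, exact binomial 95% interval 2.09% to 3.98%, counting error only). Library 2 held 14 of 644 (2.17%, 1.19% to 3.62%).

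Cochleae of several wild-type C57BL/6 mice at postnatal day 20 were dissociated with trypsin and read by droplet single-cell RNA sequencing in 2 libraries of 1 group. The design text gives a survey of expression in the day 20 cochlea as the purpose. No treatment or mutant allele is named, and the sex of the mice is not given. The labels do not say whether the libraries came from separate animals. The p-values rest on how far differences between groups of cells vary from library to library. That spread was estimated over all fitted groups and moderated over genes, and it may be technical.

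Fibrocytes are mesenchymal cells of the spiral ligament, the connective tissue between the otic capsule and the stria vascularis. Several of their subtypes take up potassium with the sodium pump and pass it from cell to cell through gap junctions of connexin 26 and connexin 30 towards the stria, which secretes it into endolymph. Mutations of GJB2, the human connexin 26 gene, are a common cause of inherited deafness.

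The rule used Kcnk2, Car3 and Gjb2, so their levels are a description. Kcnk2 encodes a 2-pore potassium channel and stood at a median of 31 UMIs per member in library 1 (range 6 to 132) and 44 in library 2 (6 to 107). Car3, a carbonic anhydrase, had medians of 21 (3 to 84) and 31.5 UMIs (3 to 77). Gjb2 had medians of 37 (4 to 225) and 80.5 UMIs (40 to 232). The libraries overlapped for each of the 3 genes, although the lowest Gjb2 value of library 2 lay above the median of library 1. At the edge of the rule, the lowest members held 6 Kcnk2 UMIs in either library, 3 Car3 UMIs in either, and 4 and 40 Gjb2 UMIs. Of the barcodes that met the other conditions and failed on 1 gene, the highest held 4 and 0 Kcnk2 UMIs, 1 and 2 Car3 UMIs, and 1 and 1 Gjb2 UMIs.

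The other label genes were present in most members but not in equal measure. Gjb6, encoding connexin 30, was detected in 38 of 39 and in 14 of 14 members, with medians of 13 and 28.5 UMIs. Ppp1r1b, which encodes the phosphatase inhibitor DARPP-32, was detected in 34 of 39 and 13 of 14 members. Bdh1, the mitochondrial enzyme that interconverts ketone bodies, was detected in 28 of 39 and 11 of 14 members, with a median of 2 UMIs in either library. The members held 94 and 34 Bdh1 UMIs and the fibroblasts defined below 1 in each library. Passing barcodes outside the members and the classes below held 80 and 25.

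Otos, which encodes the secreted protein otospiralin and stands first in the label, was the least even of these genes. It was at 0 in 9 of the 53 members, and 10 members held at least 20 UMIs. A pair of library 1 cells held at least 200 each (220 and 301 UMIs) and carried 60.7% of the Otos UMIs of that library's members. Otos stood at 1090 CPM (UMI counts scaled to a sum of 1e+06) of all member UMIs in library 1 and at 661 in library 2, and at 435 and 340.5 without the 2 highest cells of each library. With every cell thinned to 3000 UMIs, a UMI of Otos was found in 53.8% and 57.1% of members, 39.5% and 14.2% of fibroblasts, and 29.7% and 21.3% of the Lox class defined below. Members had median depths of 16306 and 18398 UMIs and fibroblasts 5697 and 5789 before thinning. High Otos was not limited to the members either: 8 and 3 barcodes outside the rule held at least 20 Otos UMIs, with maxima of 191 and 485. Of these 11 barcodes, 10 held no Kcnk2 UMI. Since Otos was neither even within the members nor limited to them, the cells are called members or gated fibrocytes below, after the rule.

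**Figure D1:**
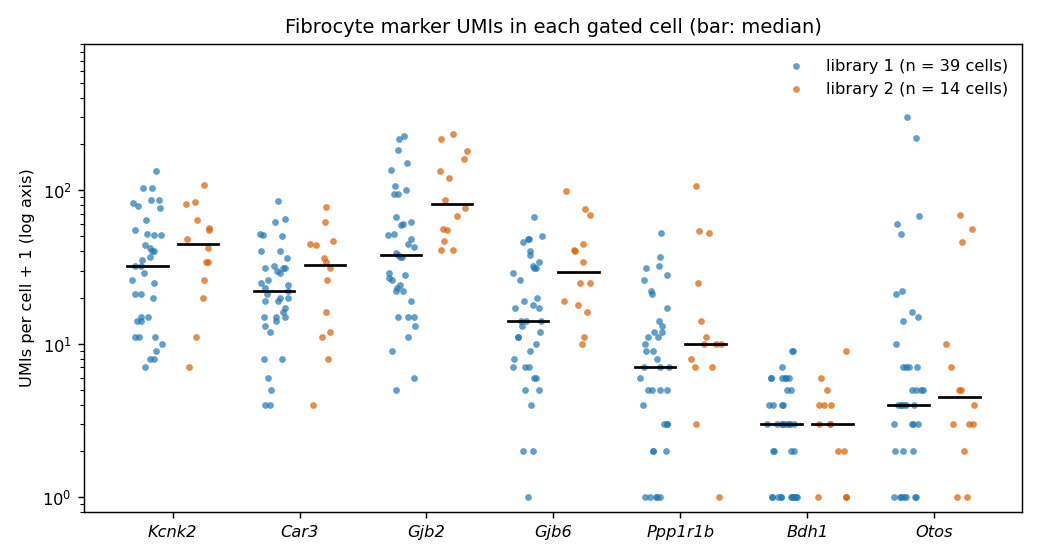
UMIs per cell plus 1, on a log axis, of the 3 rule genes and the 4 other label genes in the 39 members of library 1 (blue) and the 14 of library 2 (orange), with 1 point per cell and a bar at the median. Otos ranged from 0 to 301 UMIs with medians of 3 and 3.5, and the rule genes were above 0 in every member because the rule requires it.

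Gjb2 and Gjb6 lie in tandem on chromosome 14, on the same strand, with 28909 bases between their RefSeq start sites. The 250 bases before the start are shown for both and for Atp1b1 and Ppargc1a, a pump and an energy gene described below, to let the upstream regions of 4 genes of high level in the members be compared. Sequences are from RefSeq on GRCm38.p6, minus strand, read 5′ to 3′, and capitals mark GC boxes (GGGCGG or its reverse complement CCGCCC, with no overlaps), the letters read by Sp-family factors.
Gjb2 chr14:57104703-57104952: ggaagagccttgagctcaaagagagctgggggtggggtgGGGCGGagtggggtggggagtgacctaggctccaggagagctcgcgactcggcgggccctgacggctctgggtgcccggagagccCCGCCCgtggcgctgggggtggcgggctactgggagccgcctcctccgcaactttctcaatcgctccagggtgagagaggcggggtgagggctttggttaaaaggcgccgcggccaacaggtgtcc
Gjb6 chr14:57133612-57133861: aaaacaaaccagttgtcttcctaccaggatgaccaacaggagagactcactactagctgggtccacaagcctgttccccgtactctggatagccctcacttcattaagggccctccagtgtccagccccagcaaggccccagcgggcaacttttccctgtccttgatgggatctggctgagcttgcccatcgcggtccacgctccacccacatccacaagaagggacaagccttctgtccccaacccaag
Atp1b1 chr1:164458356-164458605: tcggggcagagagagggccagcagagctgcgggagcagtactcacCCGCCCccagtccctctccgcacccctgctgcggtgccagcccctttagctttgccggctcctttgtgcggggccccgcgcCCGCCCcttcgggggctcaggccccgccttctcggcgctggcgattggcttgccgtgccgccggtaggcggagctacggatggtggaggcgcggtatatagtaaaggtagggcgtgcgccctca
Ppargc1a chr5:51567726-51567975: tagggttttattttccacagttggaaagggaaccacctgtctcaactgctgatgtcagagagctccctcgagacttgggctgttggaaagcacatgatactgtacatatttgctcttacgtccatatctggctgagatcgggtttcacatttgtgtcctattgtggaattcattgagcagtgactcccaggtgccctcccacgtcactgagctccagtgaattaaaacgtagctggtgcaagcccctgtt
The Gjb2 and Atp1b1 windows each held 2 GC boxes, and the Gjb6 and Ppargc1a windows held 0. Over all promoters of the table, 32.7% held at least 1. Base composition differed in the same way, with 69.2% G or C for Gjb2 and 70.4% for Atp1b1 against 56.8% for Gjb6 and 48.0% for Ppargc1a. On the scale used below, Gjb2, a gene of the rule, stood at 2656 and 4787 CPM in the members. Gjb6, a gene of the label, stood at 888 and 1634 CPM. No relation between these levels and the upstream windows was tested. Across the 53 members, Gjb2 and Gjb6 CPM had a Spearman correlation of 0.69 (0.70 in library 1 and 0.32 in library 2, over 39 and 14 cells that share a library), given as a description.

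For comparison, 3 other mesenchymal classes were cut by UMI counts from barcodes outside the rule. Fibroblasts held at least 3 Ccl11 and 3 Dcn UMIs (124 and 127 cells). The Lox class held at least 10 Coch, 1 Lox and 2 Rarres1 UMIs (111 and 94 cells), and the Kcnk3 class at least 3 Coch, 2 Kcnk3 and 2 Nov UMIs (21 and 18 cells). The mean of the Lox and Kcnk3 classes is called Coch-positive mesenchyme below, after Coch, the gene of the matrix protein cochlin. The name does not set these classes apart from the members, all 53 of which held Coch UMIs (medians of 26 and 25.5 per cell). Coch made up 3529 and 2073 CPM of the members' summed UMIs, 12014 and 9981 of the Lox class, 1770 and 1105 of the Kcnk3 class and 208 and 120 of fibroblasts. Classes of a library came from the same cell suspension. UMIs were summed per library and class, and levels below are CPM of those sums on trimmed-mean (TMM) scaled library sizes, given for library 1 and then library 2.

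In edgeR's quasi-likelihood test with Benjamini-Hochberg adjustment, 1433 of 8888 tested genes (16.1%) were higher in the members than in Coch-positive mesenchyme and 1363 (15.3%) were lower at an adjusted p under 0.05. Against fibroblasts, 1298 genes (14.6%) were higher and 1216 (13.7%) lower. The median log2 fold change over all tested genes was -0.02 in either comparison. The comparisons share the members' sums and are not independent; each is given with its own values. Counts of gene lists below are to be read beside these shares of all tested genes. Genes of the rules and of the label were not tested.

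Mitochondrial UMIs made up a median of 9.26% and 12.1% of a member's UMIs, against 3.04% and 3.24% in fibroblasts, 2.59% and 2.90% in the Lox class and 2.37% and 2.54% in the Kcnk3 class. A high share can mark cells rich in mitochondria or damaged cells, and its part in the results below was not tested. A limit of 10% on mitochondrial UMIs, with 500 or more detected genes, left 23 and 3 members. With those, 814 of 8299 tested genes were higher and 800 lower than in Coch-positive mesenchyme, and 725 higher and 753 lower than in fibroblasts. Each of these counts was smaller than with all members. Counts of a gene list under this limit are called counts at the 10% limit below. They rest on 3 cells in library 2. The 23 cells of library 1 include the 5 Coch-rich members described below, with mitochondrial shares of 3.0% to 6.76%. A single one of these held 87425 of the 505771 member UMIs left in library 1. The limit thus also changes the mix of members, and the part of this in the counts was not tested.

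The sodium pump moves sodium out of and potassium into the cell, with a catalytic alpha and a supporting beta subunit and small FXYD proteins that tune it. Of 9 tested pump and FXYD genes, 6 were higher than in Coch-positive mesenchyme and 0 lower (median log2 fold change 2.00), and 7 were higher than in fibroblasts and 0 lower (median 2.38). With the members at or under 10% mitochondrial UMIs, 6 of 9 were higher in either comparison.

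Atp1b1, the beta1 subunit, stood at 1923 and 2535 CPM in the members, at 42.6 and 62.5 in the Lox class, at 98.6 and 166 in the Kcnk3 class and at 159 and 171 in fibroblasts. No library of another class came near the members. The log2 fold change was 4.76 ± 0.18 (SE, edgeR adjusted p = 2.74e-18) against Coch-positive mesenchyme and 3.73 ± 0.22 (adjusted p = 2.48e-13) against fibroblasts. Atp1b3, another beta subunit, stood at 672 and 577 CPM against 115 to 235 elsewhere (1.63 ± 0.15, adjusted p = 5.2e-10, and 2.37 ± 0.18, adjusted p = 4.77e-11).

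Fxyd2, the gamma subunit best known from kidney tubules, stood at 7119 and 2838 CPM in the members and at no more than 25 CPM in any library of the other classes. Its log2 fold change was 7.99 ± 0.25 (adjusted p = 5.03e-20) against Coch-positive mesenchyme and 8.17 ± 0.34 (adjusted p = 9.93e-17) against fibroblasts. The libraries differed for this gene: the median member had 6821 Fxyd2 CPM in library 1 and 1420 in library 2, and 2 and 1 members had none. Members also differed widely within a library. Those of library 1 ranged from 0 to 40756 Fxyd2 CPM, and several held only 1 to 3 UMIs. In library 2, members lay at 381 CPM or under or at 2459 or over, with none near the median. Fxyd6 was alike in the sums of the libraries, at 2465 and 2357 CPM in the members against 432 to 690 in the other 6 sums (2.01 ± 0.17 and 2.38 ± 0.22).

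**Figure D2:**
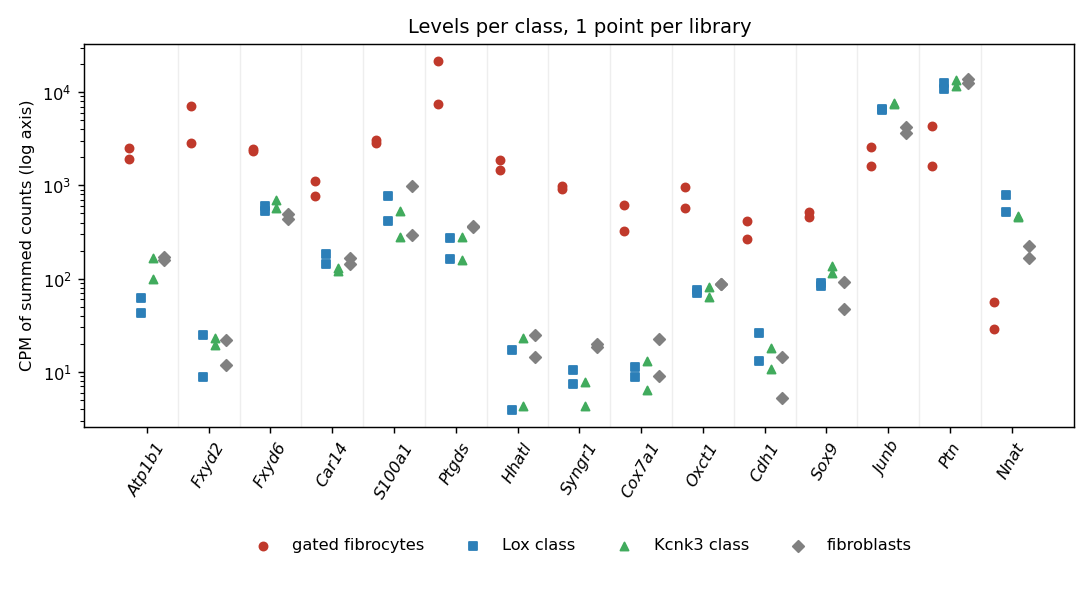
CPM (log axis) of 15 genes in the gated fibrocytes (red circles), the Lox class (blue squares), the Kcnk3 class (green triangles) and the fibroblasts (grey diamonds), with 1 point per library. The members lie above all 6 other sums for Atp1b1 through Sox9, and below them for Junb, Ptn and Nnat.

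Potassium and chloride genes were mixed. Of 12 tested, 7 were higher and 2 lower than in Coch-positive mesenchyme (median log2 fold change 0.87), and 5 were higher and 1 lower than in fibroblasts (median 0.60). With members at or under 10% mitochondrial UMIs the counts were 2 higher and 2 lower, and 3 higher and 0 lower. Kcnk1, a 2-pore potassium channel like Kcnk2 of the rule, stood at 68.4 and 98.7 CPM in the members and at 0 to 3.62 in the other sums, with 4.57 ± 0.52 (adjusted p = 1.47e-07) against fibroblasts. Against the Kcnk3 class, which held 1 Kcnk1 UMI, the ratio was 69.5 (exact 95% counting interval 12.1 to 2775). Slc12a2, the sodium-potassium-chloride cotransporter NKCC1 that loads cells with potassium, stood at 52.8 and 98.7 CPM in the members. The Lox class had 48.4 and 42.2 CPM of Slc12a2, close to the members of library 1, and the Kcnk3 class 19.3 and 18.2 (1.22 ± 0.28, adjusted p = 0.00128, and 0.85, adjusted p = 0.0775, at or under 10% mitochondrial UMIs). Clic5, a chloride intracellular channel protein, was higher by 1.85 ± 0.42 and 2.66 ± 0.53. Kcnj8, an inward rectifier typical of pericytes, stood at 12 and 0 CPM against 15 to 86.6 in the Coch-positive libraries and was lower (-2.31 ± 0.50, adjusted p = 0.000938). Gjc1, encoding connexin 45 and the only tested connexin, was also lower, at 9.60 and 3.19 CPM against 23.5 to 42.9 (-2.23 ± 0.42, adjusted p = 0.000101).

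Of 9 tested acid-base genes, 2 were higher and 1 lower than in Coch-positive mesenchyme, and 2 were higher and 0 lower than in fibroblasts. Of all tested genes, 16.1% and 14.6% were higher. Of 8 tested at the 10% limit, 2 were higher and 1 lower, and 3 higher and 0 lower. Car14, a membrane-bound carbonic anhydrase, stood at 774 and 1118 CPM in the members and between 120 and 183 in every other sum (2.70 ± 0.15, adjusted p = 2.56e-14, and 2.59 ± 0.19, adjusted p = 1.23e-11). Car2, the cytosolic form, separated the members from fibroblasts alone in these tests: its levels of 300 and 252 CPM overlapped the Coch-positive libraries (-0.01 ± 0.16, adjusted p = 0.979) and exceeded the 83.3 and 51.4 CPM of fibroblasts (2.02 ± 0.20, adjusted p = 5.98e-09). Slc4a11, a borate transporter family member, stood at 18.0 and 0 CPM in the members against 66.5 to 161 in the Coch-positive libraries (-2.96 ± 0.51, adjusted p = 0.00151).

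Of 8 tested genes of calcium handling, 2 were higher in either comparison: S100a1, a calcium sensor of striated muscle, and Atp2a2, the SERCA2 pump that fills internal calcium stores. S100a1 stood at 3100 and 2883 CPM in the members, and the other sums ranged from 280.5 to 976 (2.72 ± 0.24 and 2.44 ± 0.30). Library 1 was the higher in all of the other classes, and the difference from fibroblasts was not called without the library as a block (adjusted p = 0.0662). Atp2a2 stood at 93.6 and 108 CPM against 19.3 to 37.2 in the other sums (1.85 ± 0.24 and 1.93 ± 0.27). Atp2b1, a plasma membrane calcium pump, was lower than in Coch-positive mesenchyme (-0.93 ± 0.20, adjusted p = 0.0008) and did not pass against fibroblasts (-0.04 ± 0.23). There were again 2 of 8 higher in either comparison at the 10% limit.

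The genes of respiration were higher almost throughout. Citric acid cycle genes were higher in 20 of 20 cases against Coch-positive mesenchyme (median log2 fold change 1.68) and in 19 of 20 against fibroblasts (median 1.28). Of 62 tested nuclear genes of respiratory complexes I, III and IV and the ATP synthase, 62 were higher in the first comparison and 60 in the second, and 0 were lower in either. Medians were 1.20 and 1.02 for complex I, 1.80 and 1.6 for complexes III and IV, and 1.63 and 1.44 for the ATP synthase. All 13 mitochondrially encoded messages were higher than in Coch-positive mesenchyme (median 1.78) and 12 of 13 than in fibroblasts (median 1.52). These counts stand against 16.1% and 14.6% of all tested genes.

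The same lists gave smaller numbers in members at or under 10% mitochondrial UMIs, a limit set on part of this very signal. Then 53 and 47 of the 62 nuclear genes, 18 and 15 of 20 citric acid cycle genes, and 9 and 4 of 12 mitochondrial messages were higher, and 0 were lower in each. The medians for complex I were 0.87 and 0.69. Over all genes, 814 and 725 of 8299 tested were higher at this limit. The nuclear messages are not counted in the mitochondrial share, and the part of that share in their levels was not tested.

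Idh3a, a subunit of isocitrate dehydrogenase, stood at 149 and 223 CPM in the members and at 15.6 to 34.4 in the other sums (3.10 ± 0.23 and 2.46 ± 0.24). Cycs, cytochrome c, stood at 497 and 710 CPM against 51.9 to 95 (3.09 ± 0.16 and 2.78 ± 0.19). The largest difference of the chain was in Cox7a1, the heart and muscle form of a cytochrome oxidase subunit, at 323 and 612 CPM in the members and 6.43 to 22.4 elsewhere (5.50 ± 0.20, adjusted p = 1.98e-18, and 4.91 ± 0.23, adjusted p = 1.32e-15). Cox8b, another muscle form, was less even, at 332 and 191 CPM, with 14 of 39 and 5 of 14 members at 0. Its difference passed against Coch-positive mesenchyme (5.36 ± 1.03, adjusted p = 0.036) and not against fibroblasts (4.31 ± 1.10, adjusted p = 0.0764), and the first call was lost without the low-count filter (adjusted p = 0.0856). Against fibroblasts, Cox8b was called with DESeq2 (5.56, adjusted p = 0.00295). In edgeR it was called after thinning to 3000 UMIs (4.87, adjusted p = 3.73e-11) and at the 10% limit (4.08, adjusted p = 0.0303). Among the mitochondrial messages, mt-Nd1 stood at 8902 and 12632 CPM in the members and at 1724 to 3664 elsewhere (2.25 ± 0.20 and 1.64 ± 0.24).

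Among fuel genes, 16 of 28 were higher and 2 lower than in Coch-positive mesenchyme (median 1.28), and 13 higher and 2 lower than in fibroblasts (median 0.98). The 10% limit left 12 of 25 higher and 1 lower, and 10 higher and 1 lower. Ppargc1a, the coactivator PGC-1alpha that drives mitochondrial biogenesis, held 176 UMIs in the members, 0 in the Lox class and 1 in the Kcnk3 class. Its level was 143 and 182 CPM in the members, at least 183-fold higher than in the Lox class, taking a floor of 3 counts over both libraries. Against fibroblasts, at 1.81 and 2.63 CPM, the log2 fold change of Ppargc1a was 6.12 ± 0.40 (adjusted p = 3.57e-12). Esrra, a nuclear receptor that works with this coactivator, stood at 57.6 and 60.5 CPM against 5.19 to 16.6 elsewhere (2.13 ± 0.32 and 2.16 ± 0.36). Neither Esrra call held with cells thinned to 3000 UMIs (1.81, adjusted p = 0.132, and 2.21, adjusted p = 0.0530). Oxct1, the enzyme that lets cells burn ketone bodies and a partner of Bdh1, stood at 567 and 968 CPM against 64.3 to 88.2 elsewhere (3.34 ± 0.17, adjusted p = 5.35e-15, and 3.07 ± 0.20). Plin4, a lipid droplet coat protein, stood at 75.6 and 150 CPM in the members and at 3.62 and 2.63 in fibroblasts (4.95 ± 0.45).

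Glucose genes were on the same side. Slc2a1, the glucose transporter GLUT1, stood at 48.0 and 105 CPM against 4.29 to 13.2 elsewhere (3.37 ± 0.35 and 2.55 ± 0.35). Slc2a4, the insulin-responsive transporter GLUT4, stood at 16.8 and 63.7 CPM against 1.62 to 5.27 (3.45 ± 0.57 and 3.12 ± 0.64). Of 13 glycolysis genes, 10 were higher and 0 lower in either comparison (medians 1.74 and 1.38), including Hk1 (2.48 ± 0.25 and 1.54 ± 0.25) and Aldoa (2.02 ± 0.16 and 1.54 ± 0.19). Of the 13, 9 and 7 were higher and 0 lower at the 10% limit. The Hk1 call against fibroblasts was lost after thinning (1.01, adjusted p = 0.218). Ckb, the brain creatine kinase that buffers ATP, stood at 1628 and 2074 CPM against 179 to 750.1 elsewhere (1.96 ± 0.18 and 3.33 ± 0.24). Of 26 antioxidant genes, 10 were higher and 1 lower than in Coch-positive mesenchyme, and 4 higher and 5 lower than in fibroblasts (medians 0.31 and -0.03). Of all tested genes, 16.1% and 15.3%, and 14.6% and 13.7%, were higher and lower, so the list lies near these shares against fibroblasts. At the 10% limit, 7 of 25 antioxidant genes were higher and 0 lower, and 2 higher and 2 lower. Gsta4, which detoxifies lipid peroxidation products, passed in both (2.13 ± 0.16 and 1.23 ± 0.18), as did the mitochondrial superoxide dismutase Sod2 (1.17 ± 0.18 and 1.11 ± 0.20).

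**Figure D3:**
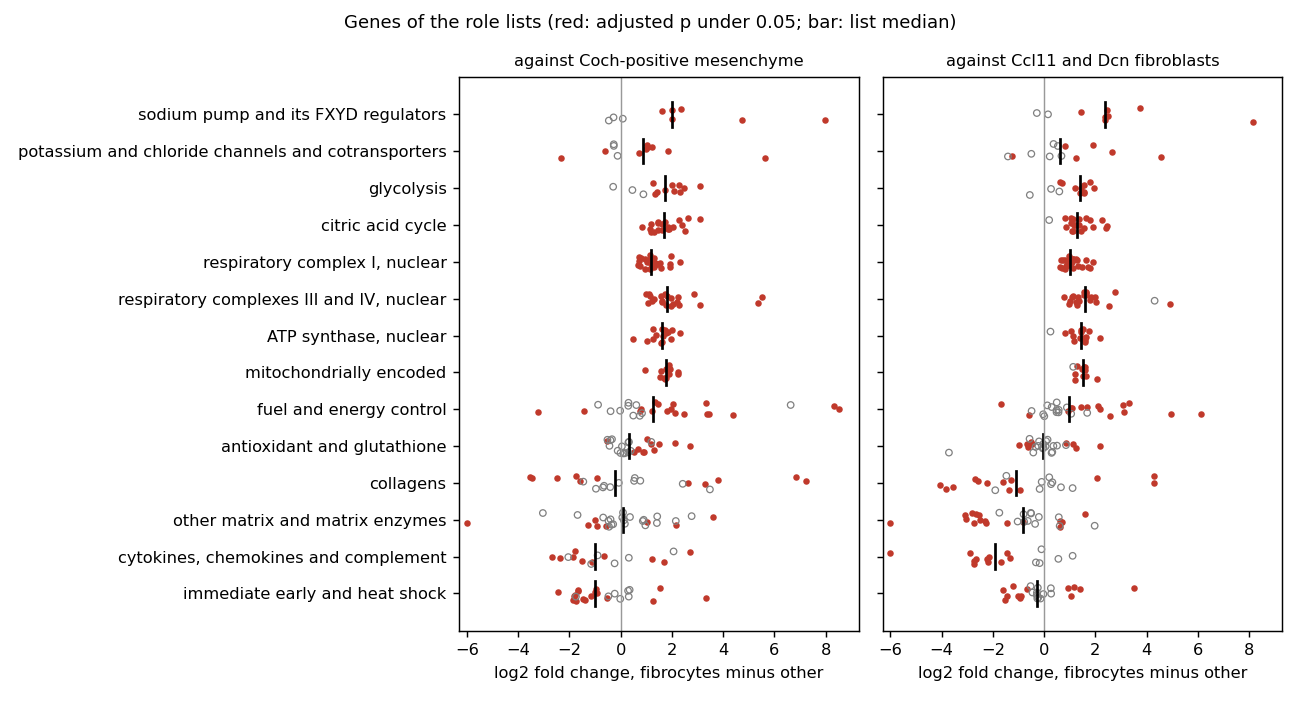
Log2 fold change of the members against Coch-positive mesenchyme (left) and fibroblasts (right) for the tested genes of 14 lists, with red points for genes at an edgeR adjusted p under 0.05, open points for the others and a bar at the list median. Values under -6 are drawn at -6. The citric acid cycle, respiratory and ATP synthase lists lie to the right of 0 in both panels, and the cytokine list has its median at -1.0 and -1.92.

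Outside these lists, several genes were high in the members and low in all other sums. Fold changes against classes with 3 or fewer counts depend on the prior count, so those genes are given by their levels and by the fibroblast comparison. Syngr1, a vesicle membrane protein, stood at 920.1 and 981 CPM against 4.29 to 19.9 elsewhere (7.03 ± 0.20, adjusted p = 9.31e-21, and 5.60 ± 0.22, adjusted p = 6.53e-17). Hhatl, an acyltransferase-like protein of the endoplasmic reticulum, stood at 1462 and 1892 CPM against 3.91 to 25 (7.27 ± 0.25 and 6.45 ± 0.30). Slc5a3, the sodium-coupled transporter that takes up the osmolyte myo-inositol, stood at 535 and 666 CPM against 2.63 to 18.1 (6.14 ± 0.30 and 5.64 ± 0.35). S100b, a calcium-binding protein of glia and chondrocytes, stood at 1263 and 1790 CPM against 23.4 to 74.7 (5.21 ± 0.18 and 5.31 ± 0.22).

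Others of this kind were nearly absent from the Kcnk3 class. Scrg1 stood at 170 and 245 CPM in the members (5.08 ± 0.39 against fibroblasts), and Padi2, a peptidylarginine deiminase, at 116 and 105 CPM (4.22 ± 0.35). Padi2 held 0 UMIs in the Kcnk3 class, where the members were at least 34.2-fold higher by the same floor. Fam107a, at 344 and 736 CPM, and Bace2, a relative of the beta-secretase, at 120 and 178 CPM, were higher than in fibroblasts by 4.83 ± 0.30 and 4.03 ± 0.32. Aif1l was higher in either comparison but uneven between libraries, at 127 and 494 CPM (5.33 ± 0.29 and 5.01 ± 0.34).

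Secreted proteins moved in both directions, with 4 of 12 higher and 5 lower than in Coch-positive mesenchyme and 3 higher and 4 lower than in fibroblasts. Of the 12, 4 were higher and 2 lower, and 2 higher and 4 lower, at the 10% limit. Ptgds, prostaglandin D synthase, stood at 7429 and 21376 CPM in the members and 159 to 367 elsewhere (5.95 ± 0.25, adjusted p = 5.17e-16, and 5.12 ± 0.33). Every member held Ptgds UMIs, from 1 to 678 in library 1 and 10 to 2216 in library 2. Apod, apolipoprotein D, stood at 6326 and 14801 CPM. It was higher than in Coch-positive mesenchyme (3.13 ± 0.25, adjusted p = 3.42e-10), while fibroblasts had 9332 and 10203 CPM, between the members' libraries (0.05 ± 0.29, adjusted p = 0.932). Ptn, the growth factor pleiotrophin, was lower at 4339 and 1628 CPM against 10805 to 13998 in the other sums (-2.07 ± 0.33 and -2.20 ± 0.36). Clu, the chaperone clusterin, was called higher (1.02 ± 0.27 and 1.18 ± 0.32), but neither call held without the Coch-rich members described below (1.00, adjusted p = 0.0940, and 1.16, adjusted p = 0.105). Both Clu calls were also lost with the stricter rule for members (1.07, adjusted p = 0.115, and 1.23, adjusted p = 0.132) and with the looser one (0.86, adjusted p = 0.0994, and 1.02, adjusted p = 0.105).

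Phosphatase and cAMP genes showed no common direction, with 1 higher and 5 lower of 14 against Coch-positive mesenchyme and 3 and 3 against fibroblasts. In either comparison 1 was higher and 4 lower at the 10% limit. Ppp1r1a, the inhibitor 1 paralog of the label gene Ppp1r1b, stood at 411 and 306 CPM in the members and 6.49 to 39.8 elsewhere (5.05 ± 0.20, adjusted p = 8.02e-18, and 3.48 ± 0.20). Pde4d, which degrades cAMP, was lower at 115 and 12.7 CPM against 275 to 705 in the Coch-positive libraries (-2.86 ± 0.40, adjusted p = 0.00127; without the library as a block, adjusted p = 0.0584).

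Among 25 transcription factors, 6 were higher and 10 lower than in Coch-positive mesenchyme, and 5 and 5 against fibroblasts. These counts were 5 and 7, and 3 and 4, at the 10% limit. Pou3f4, the otic mesenchyme factor mutated in X-linked deafness, stood at 362 and 258 CPM in the members and between 231 and 341 in the other sums. It passed in neither comparison (0.21 ± 0.16, adjusted p = 0.342, and -0.03 ± 0.18, adjusted p = 0.925), and neither did Tbx18, another factor of otic mesenchyme (0.24 ± 0.16 and -0.40 ± 0.18). Sox9, a factor of cartilage and otic cells, stood at 459 and 516 CPM against 47.4 to 135 elsewhere (2.21 ± 0.17, adjusted p = 1.53e-10, and 2.76 ± 0.21). Mitf, known for its role in melanocytes, was low but present at 28.8 and 51.0 CPM against 5.43 and 2.63 in fibroblasts (3.07 ± 0.63, adjusted p = 0.000373). The Mitf call against fibroblasts was lost at or under 10% mitochondrial UMIs (adjusted p = 0.0638). The 8 markers of the stria's intermediate cells, its melanocytes, summed to 71 and 41 UMIs in the members (90.1 and 135 CPM), of which Met gave 48 and 19 and Tyrp1 13 and 10. Tyr and Kcnj13 were at 0 in the members of both libraries and Pmel in library 1. The list summed to 183 and 240 CPM in fibroblasts, and its part in the Mitf difference was not tested. Klf2, a flow and stress responsive factor, was lower, at 716 and 178 CPM against 3077 to 4258 in the Coch-positive libraries (-3.11 ± 0.34, adjusted p = 5.61e-06).

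Stress-responsive genes, the immediate early and heat shock messages that cells switch on when stimulated or dissociated, were lower in 14 of 24 cases and higher in 3 against Coch-positive mesenchyme (median -0.99), and lower in 8 and higher in 5 against fibroblasts (median -0.28). At the 10% limit, 12 of 24 were lower and 3 higher (median -0.71), and 4 lower and 4 higher against fibroblasts (median -0.17). Junb stood at 2554 and 1618 CPM against 6428 to 7710 in the Coch-positive libraries (-1.76 ± 0.24, adjusted p = 1.21e-06); its call against fibroblasts was lost at the 10% limit (-0.58, adjusted p = 0.300). Ier2 was lower in either comparison (-1.73 ± 0.22 and -1.53 ± 0.24). Hspa1b went the other way at 39.6 and 31.9 CPM against 0.98 to 7.79 (3.32 ± 0.51 and 3.49 ± 0.62), although its reads can be split with the near-identical Hspa1a. All classes shared 1 dissociation per library, and the part of dissociation in these differences was not tested.

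Matrix genes were called in both directions. Of 22 collagens, 3 were higher and 10 lower than in fibroblasts (median -1.11), against 5 higher and 6 lower than in Coch-positive mesenchyme (median -0.24). Of 28 other matrix genes, 4 were higher and 12 lower than in fibroblasts (median -0.82), against 3 and 5. At the 10% limit, 4 of 20 collagens were higher and 3 lower than in fibroblasts, and 7 were higher and 1 lower than in Coch-positive mesenchyme. Of 27 other matrix genes, 1 was then higher and 9 lower than in fibroblasts, and 5 were higher and 2 lower than in Coch-positive mesenchyme. Col11a2, a fibrillar collagen gene mutated in deafness, stood at 102 and 201 CPM against 1.32 to 21.5 elsewhere (3.82 ± 0.43, adjusted p = 2.39e-05, and 4.28 ± 0.50). Col15a1, a basement membrane collagen, stood at 54.0 and 79.6 CPM, at least 72.9-fold higher than in the Lox class, which held 0 UMIs, and close to fibroblasts at 45.3 and 72.4 (0.20 ± 0.26). Mfap5, a microfibril protein, held 0 UMIs in the members and 187 in fibroblasts, where it was at least 37.1-fold higher. Tnxb, tenascin X, was higher at 48.0 and 44.6 CPM against 2.45 to 21.1 (3.60 ± 0.44 and 1.60 ± 0.39). The Tnxb call against fibroblasts was lost with DESeq2 (1.58, adjusted p = 0.0757) and at the 10% limit (1.35, adjusted p = 0.0590).

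Of 16 cytokine, chemokine and complement genes, 0 were higher and 11 lower than in fibroblasts (median -1.92), and 3 higher and 7 lower than in Coch-positive mesenchyme (median -1.0). At the 10% limit, 1 of 15 was higher and 8 lower than in fibroblasts, and 1 higher and 4 lower than in Coch-positive mesenchyme. C1s1, a complement protease, stood at 21.6 and 6.37 CPM against 96.8 and 138 in fibroblasts (-2.68 ± 0.32, adjusted p = 2.15e-07). Il33, an alarmin, held 0 UMIs in the members and was at least 16.3-fold higher in fibroblasts, a difference not called without the library as a block (adjusted p = 0.0684). Cxcl12, which attracts leukocytes, stood at 99.6 and 57.3 CPM, with 294 and 149 in fibroblasts (-1.44 ± 0.29) and 31.2 to 45.4 in the Coch-positive libraries (1.22 ± 0.33). The Cxcl12 call against fibroblasts was lost after thinning (-0.41, adjusted p = 0.528) and at the 10% limit (-0.20, adjusted p = 0.675).

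Adhesion genes included an epithelial one. Cdh1, E-cadherin, stood at 265 and 414 CPM in the members against 5.27 to 25.9 elsewhere (4.24 ± 0.31, adjusted p = 4.58e-07, and 4.91 ± 0.39, adjusted p = 1.78e-06). The other markers of non-sensory epithelium were rare: of 243 and 132 UMIs for the 8 genes, 221 and 130 were Cdh1. Tjp1, the tight junction scaffold ZO-1, was lower at 110.4 and 70.1 CPM against 169 to 405 (-1.71 ± 0.20 and -1.01 ± 0.22), and its call against fibroblasts was lost at the 10% limit (-0.74, adjusted p = 0.0522). Eps8l2, an actin regulator whose human gene is linked to deafness, stood at 69.6 and 86.0 CPM in the members and held 0 UMIs in the Kcnk3 class (5.97 ± 0.65 against fibroblasts over 2 UMIs, a ratio of 71.5 with a counting interval of 19.2 to 599.7). Wfs1, the endoplasmic reticulum protein of Wolfram syndrome, which includes hearing loss, was higher in either comparison at 56.4 and 82.8 CPM against 5.19 to 18.7 (2.54 ± 0.33 and 2.57 ± 0.37). In all, 14 of 34 tested deafness genes were higher and 6 lower than in Coch-positive mesenchyme, and 14 higher and 5 lower than in fibroblasts. With the 10% limit, 9 of 33 were higher and 4 lower, and 12 higher and 4 lower. Crym, a thyroid hormone binding protein, was among the lower at 9.60 and 0 CPM against 33.8 to 82.7 (-3.06 ± 0.43).

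Among genes of at least 100 CPM in the other classes, those that fell most against Coch-positive mesenchyme were Nnat, Notum, Anks1b, Otor and Atp8a2, in that order. Nnat, the proteolipid neuronatin, stood at 56.4 and 28.7 CPM against 461 to 798 (-3.58 ± 0.27, adjusted p = 9.37e-10). Notum, a Wnt-inactivating enzyme, stood at 81.6 and 12.7 CPM against 535 to 633 (-3.44 ± 0.32), and did not pass against fibroblasts at 34.4 and 29.0 CPM (0.80 ± 0.43, adjusted p = 0.201). Otor, otoraplin, stood at 819 and 63.7 CPM against 1685 to 6317, and 1 library 1 cell carried 568 of its 683 UMIs there (-3.25 ± 0.74, adjusted p = 0.042; without the library as a block, adjusted p = 0.157; at the 10% limit, 0.101). Against fibroblasts the lowest values were those of Col26a1 (-4.48 ± 0.41), Tgfbi (-3.98 ± 0.27) and Hgd (-3.97 ± 0.31). Tgfbi, a matrix protein induced by TGF-beta, stood at 43.2 and 25.5 CPM in the members and 477 and 770.5 in fibroblasts. Igfbp7 was lower too, at 43.2 and 9.56 against 463 and 360 CPM (-3.75 ± 0.25, adjusted p = 3.98e-12).

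The members were not alike among themselves. In 5 cells, all of library 1, Coch exceeded the summed UMIs of the rule genes, with 111 to 787 Coch UMIs per cell. These Coch-rich members held 4 to 36 Gjb2, 0 to 13 Gjb6 and 0 to 20 Atp1b1 UMIs, and mitochondrial shares of 3.0% to 6.76%. The other 48 had Gjb2 levels of 842 to 8314 CPM and a median mitochondrial share of 10.4%. One Coch-rich member held 87425 UMIs, more than any other passing barcode of library 1. The rule counts UMIs with no scaling for depth, and this cell met it at 80.1 Kcnk2, 34.3 Car3 and 57.2 Gjb2 CPM. The summed fibroblasts of library 1 stood at 178, 320 and 41.2 CPM for these genes. Whether this cell is a fibrocyte was not tested. The Emcn-led endothelial marker list reached 324 UMIs in a single member. That list summed to 691 and 211 CPM in the members, with Pecam1, Cldn5 and Tie1 at 0 in both libraries. It was higher in the Lox class (3074 and 4758 CPM), the Kcnk3 class (2386 and 2897) and fibroblasts (808 and 1019), led by Emcn in each. Scrublet marked 2 of 1331 and 4 of 644 passing barcodes as doublets, and 0 members were among them. With so few marks in all, the 0 says little about doublets among the members. Without the 5 cells, 1608 genes were higher and 1585 lower than in Coch-positive mesenchyme, and 1484 and 1471 against fibroblasts. The respiratory counts were then 62 and 60 of 62 again. Otor, at 1.25 ± 0.79 against fibroblasts with all members, was lower without these cells (-0.77, adjusted p = 0.0127), and Lypd1 likewise went from 0.33 ± 0.69 to -4.04.

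Among the 53 cells, Atp1b1 CPM and mitochondrial share ranked together, with a Spearman correlation of 0.69 (0.69 in library 1 and 0.78 in library 2). Otos and Cldn11, a tight junction protein of the stria's basal cells, had 0.59 (0.62 and 0.59). Cldn11 stood at 626 and 1952 CPM in the members, below the 1987 and 3078 of fibroblasts. Kcnk2 and Car3 of the rule did not rank together (-0.09). Atp1b1 and Gjb2 had 0.77 in library 1, which holds the Coch-rich cells, and -0.10 in library 2. These are descriptions over cells that share libraries and depth, with no test.

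**Figure D4:**
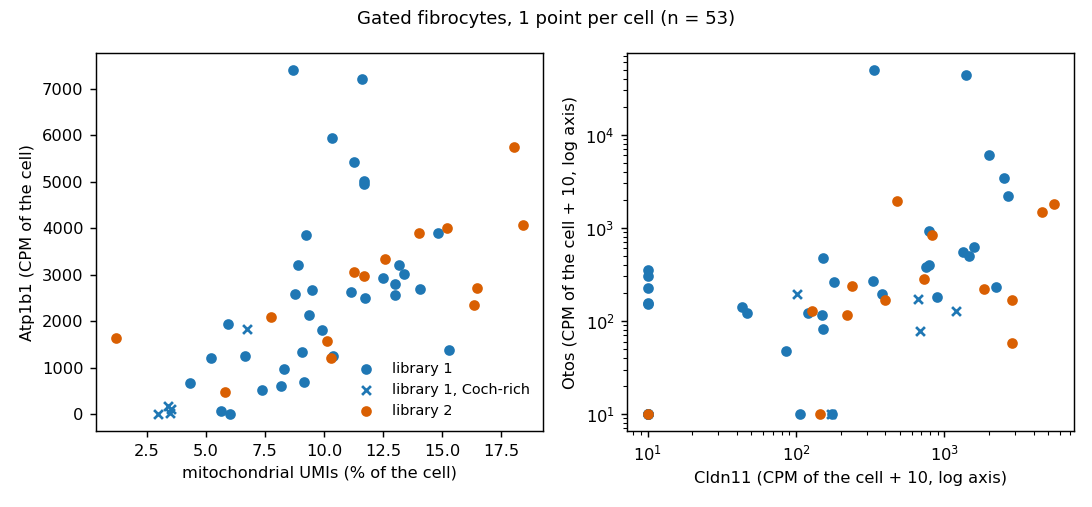
Left, Atp1b1 CPM of each member against its mitochondrial UMIs in percent. Right, Otos against Cldn11, each as CPM plus 10 on log axes. Blue is library 1, orange library 2, and crosses mark the 5 Coch-rich members, whose mitochondrial shares lie between 3.0% and 6.76%.

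Marker lists of other cell types differed in level in the members. Kcne1, the potassium channel subunit of stria marginal cells, had 0 and 1 UMIs, and the 9 marginal cell markers summed to 31 and 23 UMIs, of which Wnk2 gave 27 and 19. The 5 stria basal cell markers summed to 1053 and 788 UMIs (1336 and 2592 CPM), of which Cldn11 gave 522 and 613. That list summed to 2504 and 3460 CPM in fibroblasts, 1175 and 1569 in the Lox class and 992 and 1118 in the Kcnk3 class. Neuron markers summed to 7 and 0 UMIs and T or NK cell markers to 3 and 0. Erythroid transcripts were present in every member (31 to 489 and 15 to 87 UMIs per cell for the list), with Hbb-bs at 3252 and 369 UMIs. The erythroid list summed to 6479 and 2017 CPM in the members and 10358 and 1929 in fibroblasts. It summed to 10622 and 1881 CPM in the Lox class and 5706 and 1880 in the Kcnk3 class. The fibroblast marker list reached 6022 and 4982 UMIs, of which Apod gave 5273 and 4647, and Clec3b was at 0 in both libraries. The B lineage list reached 701 and 186 UMIs (889 and 612 CPM), of which Ebf1 gave 673 and 185, while Pax5 was at 0 in both. The same list, also led by Ebf1, summed to 1697 and 1561 CPM in the Lox class and 1661 and 1444 in the Kcnk3 class. Fibroblasts had 1186 and 1046 CPM of it. The part of these transcripts in the differences above was not tested.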

How the data were processed

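Single cells of 2 cochlea libraries were read by droplet RNA sequencing. Cell Ranger 2.1.0 and the mm10 genome are named in the submitters' processing notes. The deposited matrices hold raw UMI counts per gene and barcode, with 1610 and 720 barcodes and 20212520 and 7094752 UMIs, per the file headers and values. The selection of the barcodes was not stated in the sources used. The libraries shared 2 barcodes, none of them a member's.

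Barcodes passed with 300 or more detected genes and no more than 20% mitochondrial UMIs (275 and 60 were removed for few genes, 4 and 16 for mitochondrial UMIs). Of those removed for mitochondrial UMIs, 1 and 3 held enough Kcnk2, Car3 and Gjb2 UMIs for the member rule. Members and comparison classes were cut by UMI thresholds, and 72 and 33 barcodes that met 2 or more comparison rules were left out. A Hal class (at least 3 Coch, 2 Hal and 2 Tnc UMIs) had 3 and 2 cells, under the minimum of 10, and was not fitted. Scrublet marked doublets per library, and these cells were kept. The counts of each class in each library were added up (8 sums) and tested in edgeR 4.0.16 (R 4.3.3) with TMM factors, a minimum count of 10, a robust quasi-likelihood fit and the library as a block. SE is the log2 fold change divided by the square root of F. The blocks come from the design, since classes of a library share a suspension. The named genes were the label genes, up to 6 leading called genes of each of 24 role lists plus other list genes with their values, and the 10 highest and 10 lowest of each comparison with at least 100 CPM on the higher side. Members and lists were chosen with earlier results of these data known. In simulated data for the same sums (8388 genes), the fit recovered 83.7% of 4-fold and 45.7% of 2-fold changes against Coch-positive mesenchyme. Against fibroblasts it recovered 80.6% and 31.5%. The simulation gave every gene the same spread (dispersion 0.0159), equal means in the other classes and no library effect. The real sums differ in each of these, so recovery in them may be lower. Alternatives were DESeq2 1.42.0, no filter, no block, other thresholds, thinning and left-out cells or libraries. Promoters were matched by symbol in a RefSeq table; Car3, Ppp1r1b and Fxyd2 had no entry. Some genes of the lists count in the totals and are not reported here by name.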

Additional observations from a re-analysis of the deposited data

How the results depend on the processing

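Counts of called genes are given as higher and lower against Coch-positive mesenchyme, then higher and lower against fibroblasts. They were 1433, 1363, 1298 and 1216 in edgeR with the library as a block. Without the replicate block they were 1252, 1099, 1052 and 936, and among genes the text names the calls of Otor, Pde4d, Cldn11 and Igfbp7 against Coch-positive mesenchyme and of S100a1, Pde4d, Klf2, Cldn11, Atp8a2 and Il33 against fibroblasts were lost. DESeq2 called 925, 749, 697 and 600, of which 916, 731, 690 and 593 were also called by edgeR; the cause of the lower counts was not tested. With every cell thinned to 3000 UMIs, fewer genes were tested (3969), and the counts were 518, 497, 470 and 483. The limit of 500 genes and 10% mitochondrial UMIs left 23 and 3 members, under the cell minimum for library 2, so the fit was run without the minimum, an alternative chosen after seeing the data, as was leaving out the Coch-rich members. The fit at this limit gave 814, 800, 725 and 753 of 8299 tested genes. It keeps all 5 Coch-rich members and rests on 3 cells in library 2. Stricter and looser rules for members and no low-count filter kept each count within 1.5 times. Leaving out Scrublet-marked cells took 1 fibroblast of library 1 and no cell of the other fitted classes, so it could hardly move the counts. No member held more marginal cell than label UMIs, so leaving out such members removed no cell and tested nothing.

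Directions turned in few cases. Otor against fibroblasts went to -0.67 with the stricter rule and -0.77 without the Coch-rich members. Lypd1 against fibroblasts went to -4.03 and -4.04 in the same settings. Igfbp7 against Coch-positive mesenchyme was at 0.00102 after thinning. With a single library there is no test. Fitted fold changes of single genes were set against the difference within each library alone. Of 218, 67 without library 1 and 41 without library 2 differed by more than the standard deviation of the library values. The library values were differences of log2 CPM with a prior count of 2, a measure unlike the fitted one. For Ppargc1a against Coch-positive mesenchyme the fitted value was 8.53 and the library values 5.53 and 6.36. The counts thus do not measure dependence on a library alone. The 14 members of library 2 limit the precision of every value given for it.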

Other observations

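Outside the rule, 11 barcodes held at least 20 Otos UMIs, and they differed among themselves. In library 2 the highest held 485 Otos UMIs with 2 Gjb2, 0 Car3 and 0 Kcnk2, and another held 209 Otos with 74 Gjb2 and 56 Car3 but 0 Kcnk2. In library 1 one held 67 Otos with 102 Car3, 37 Gjb2 and 2 Kcnk2, and 56 and 77 Otos UMIs were found in barcodes with 0 of each rule gene. No comparison was made with these cells, which the rule does not group.

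A second motif, AAGGTCA or its reverse complement TGACCTT, to which nuclear receptors of the Esrra family bind, was searched on both strands of the 250 bases before the start. It was present for 4.70% of all genes in the promoter table and for 3 of 67 matched genes (4.48%) of the citric acid cycle, respiratory chain and ATP synthase lists (Ndufb2, Atp5g3 and Atp5l). Of the 10 matched among the 13 leading higher genes of the comparisons, 0 held it. The match is a description of these letters in this window.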
